A study of Mus musculus with 8 samples.

Results

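The genes described here encode proteins of the intercalated disc, the specialised junction that joins cardiomyocytes end to end. They were chosen by symbol and comprise Dsg2, Jup, Dsp and Pkp2 of the desmosome, Cdh2 and Ctnna3 of the adherens junction, Gja1 of the gap junction, its scaffold Tjp1, and Xirp1, which makes 9 of the 32285 genes in the files. All 9 were measured by single-nucleus RNA sequencing of the whole heart in male mice that were 9 weeks old, 4 wild type (WT) and 4 carrying a knockout of Taz (Taz-KO), with 1 library per mouse. Taz encodes Tafazzin, the acyltransferase that remodels cardiolipin, and lies on the X chromosome. Which part of the gene the knockout removes is not given in the sources used here. The comparison of WT with Taz-KO addresses whether the RNA of the disc genes differed in this mouse model of Barth syndrome, and in which cells.

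In the desmosome, the cadherins Dsg2 and Dsc2 reach across the gap between cells, and plakoglobin (Jup) and plakophilin (Pkp2) tie their tails to desmoplakin (Dsp), which anchors the intermediate filaments. In the adherens junction, N-cadherin (Cdh2) is coupled to actin through catenins, and the heart also uses alpha-T-catenin (Ctnna3), which binds Pkp2 and so joins both kinds of junction in the mixed area composita. Connexin plaques made of the Gja1 product carry the electrical impulse from cell to cell, zonula occludens protein (Tjp1) lines their edge, and Xirp1 is an actin-binding Xin-repeat protein of the disc. Inherited defects of the desmosomal genes cause arrhythmogenic cardiomyopathy.

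Totals ranged from 20025456 to 348080773 UMIs per library. Taz-KO mice 4685 and 5301 stood apart, with 3492 and 5571 barcodes against 21190 to 36308 in the others, and gave 200 and 1000 of the 26368 cardiomyocyte nuclei. Nuclei were assigned to 10 cell types by clusters and marker genes, with the 9 genes left out of the clustering. A further 7610 nuclei of clusters that carried cardiomyocyte markers together with those of another class, between 2.73% and 6.04% of the nuclei of a WT mouse and between 1.69% and 7.14% of those of a Taz-KO mouse, were kept out of the cardiomyocytes. Nuclei of clusters without a clear name, between 19.5% and 29.6% in a WT mouse and between 20.4% and 73.3% in a Taz-KO mouse with the highest share in mouse 4685, were not used. Cardiomyocytes were named from a marker list that includes Ttn and Ryr2, so their levels describe the class and do not test its name, with Ttn at 24252 ± 5411 CPM (UMIs of a gene per 1000000 UMIs of that cell type in a mouse; SD, n = 8) and Ryr2 at 11223 ± 1426 CPM (SD, n = 8). All levels are in CPM, and log2 fold changes are Taz-KO minus WT. Changes were tested with edgeR's quasi-likelihood test on counts summed per mouse, adjusted by the Benjamini-Hochberg method over all genes of the cell type and called at an adjusted p under 0.05.

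Taz itself, in cardiomyocytes, stood at 53.3, 49.4, 54.6 and 48.9 CPM in WT mice 4686, 4909, 5355 and 5356, and at 41.6, 38.4, 28.2 and 31.7 CPM in Taz-KO mice 4685, 4910, 5300 and 5301. Every Taz-KO mouse was below every WT mouse, and the change of -0.66 (SE 0.18, adjusted p = 0.0277) passed the test. Its log2 fold change was also below 0 in the other 9 cell types, from -1.09 to -0.42, with no overlap between the groups in 7 of the 9. In these types edgeR gave no call for Taz, while DESeq2 called it lower in endothelial cells (adjusted p = 0.00955) and macrophages (adjusted p = 0.0193). Since the deleted part is not known here, reads counted at the gene's end need not measure the loss of the protein.

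In Taz-KO cardiomyocytes, RNA of Dsg2 and Jup fell and that of the other 7 genes did not pass the test. This is 2 of 9 genes called, both lower, beside 15.5% of the 18152 genes tested, with 6.78% called lower and 8.7% called higher. DESeq2 called the same 2 genes, beside 19.5% of all genes. The median log2 fold change was -0.21 over the 9 genes and -0.01 over all genes tested. At the stricter threshold used in the study, an adjusted p under 0.001 with a log2 fold change over 0.58, edgeR called 0 of the 9 and DESeq2 called Dsg2, beside 2.31% and 8.09% of all genes. At an unadjusted p under 0.05, 3 of the 9 genes would pass in either tool, beside 29.3% of all genes in edgeR and 29.5% in DESeq2. Both calls were lost when the libraries of low depth were left out together: without mice 4685 and 5301 the changes were -0.87 (adjusted p = 0.0514) for Dsg2 and -0.63 (adjusted p = 0.0846) for Jup, and 0 of the 9 genes were called, beside 9.97% of all genes in that fit. The plot of the 9 genes in cardiomyocytes shows the values of each mouse.

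**Figure D1:**
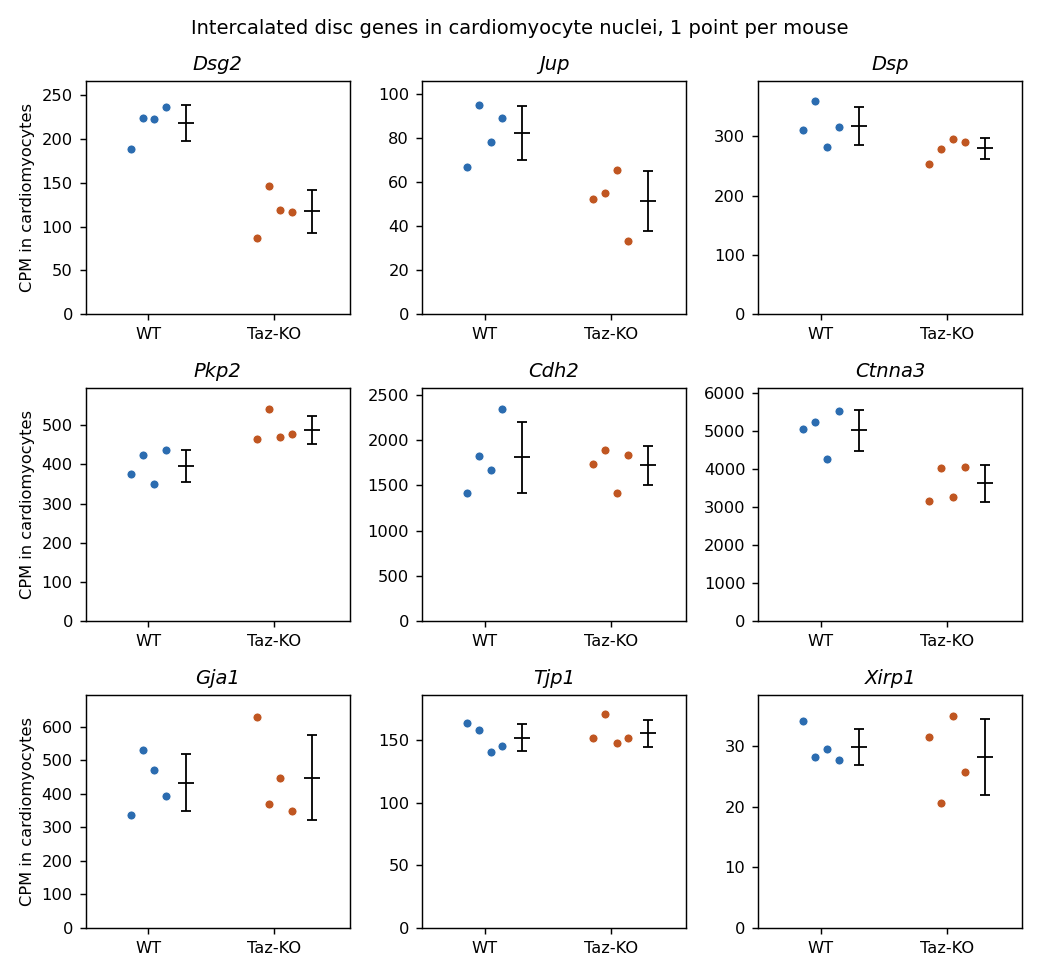
CPM of each gene in the cardiomyocytes of each mouse (y axis, starting at 0), with WT mice in blue and Taz-KO mice in orange; the black mark and bar give the mean and SD of 4 mice. Dsg2, Jup and Ctnna3 are lower in every Taz-KO mouse than in every WT mouse, Pkp2 is higher, and the groups overlap for the other 5 genes.

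Dsg2, a desmosomal cadherin, measured 189, 225, 222 and 237 CPM in WT mice 4686, 4909, 5355 and 5356. In Taz-KO mice 4685, 4910, 5300 and 5301 it measured 87.2, 146, 119 and 117 CPM. The groups were well apart, with the highest Taz-KO mouse at 146 CPM and the lowest WT mouse at 189 CPM. The log2 fold change was -0.99 (SE 0.21, adjusted p = 0.00953), and means fell from 218 ± 20.8 CPM (SD, n = 4) to 117 ± 24.2 CPM (SD, n = 4). Among single nuclei thinned to 1000 UMIs, between 15.2% and 19.4% of WT cardiomyocytes had a Dsg2 UMI and between 7.07% and 14.1% of Taz-KO cardiomyocytes, against between 2.23% and 3.94% of WT fibroblasts, which measure the background. Without thinning these shares were between 75.0% and 83.5%, between 40.7% and 71.2%, and between 10.9% and 22.1%.

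Jup encodes plakoglobin, the catenin family member that desmosomes and adherens junctions share. In WT mice 4686, 4909, 5355 and 5356 it measured 67.0, 95.0, 78.2 and 89.1 CPM, and in Taz-KO mice 4685, 4910, 5300 and 5301 it measured 52.2, 55.1, 65.6 and 33.2 CPM. The gap between the groups was small, from 65.6 CPM in the highest Taz-KO mouse to 67.0 CPM in the lowest WT mouse. The log2 fold change was -0.805 (SE 0.19, adjusted p = 0.0134). The Jup level in cardiomyocytes was not above that in the tenth of barcodes with the fewest UMIs of the same library in any of the 8 mice, whereas the Dsg2 level was above it in 8 of 8. The share of cardiomyocytes with a Jup UMI after thinning, between 6.72% and 9.69% in WT and between 3.51% and 7.80% in Taz-KO, lay near that in WT fibroblasts, at between 8.28% and 11.2%. Fibroblasts cannot be taken as a background for Jup. The Jup level outside cardiomyocytes was on average between 6.89 and 21.2 times the share of carried-over cardiomyocyte RNA (between 3.17 and 11.97 times without mice 4685 and 5301). That share leaves out RNA from other cells, and fibroblast Jup exceeded the lowest-UMI barcodes in 1 of 8 mice. Whether fibroblasts express Jup was thus not settled, and no cell type here was shown to lack Jup and so to serve as a background. How much of the Jup RNA in cardiomyocyte droplets came from cardiomyocytes was not tested. Markers of other cell types were measured in the same nuclei. The summed level of 83 marker genes of other cell types in cardiomyocytes, 54 of them with a lower mean in Taz-KO and none at 0, ranged from 3876 to 8322 CPM in WT and from 2100 to 6371 CPM in Taz-KO (exact permutation test, two-sided p = 0.229), and its fibroblast part from 2398 to 6217 CPM and from 961 to 4343 CPM (p = 0.171 by the same exact test). Their B-lymphocyte part ranged from 25.8 to 35.6 CPM in WT and from 11.3 to 20.1 CPM in Taz-KO. Their smooth muscle part was higher in Taz-KO, from 56.2 to 232 CPM against 14.4 to 53.5 CPM. Both had an exact permutation p of 0.0286, the smallest that 4 mice against 4 allow, before any adjustment over the lists. The remaining lists of other cell types each gave an exact permutation p of 0.143 or more. In the pericyte list 7 of 8 genes had a lower mean in Taz-KO, and in the mesothelial list 0 of 8. Of 79 markers of other cell types tested, 6 were called lower and 1 higher in Taz-KO by edgeR. The 4 ventricular cardiomyocyte markers also had a lower mean in Taz-KO, 1 of them called, with a sum of 1456 to 4883 CPM in WT and 937 to 2508 CPM in Taz-KO (exact permutation p = 0.114). The part of these RNAs in the fall of Dsg2 and Jup was not tested as such. Subtracting a share of 0.2 of the lowest-UMI profile left Jup at -1.09 (adjusted p = 0.0134) and Dsg2 at -1.06 (adjusted p = 0.0159).

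The Jup promoter is printed beside that of Dsp, its desmosomal partner that was not called, to show what lies before a gene that fell and one that did not pass. Both are the 250 bases before the RefSeq start on build GRCm38.p6, at chr11:100397791-100398040 on the minus strand for Jup and at chr13:38151044-38151293 on the plus strand for Dsp. Capitals mark matches to the GC box GGGCGG on either strand.
Jup: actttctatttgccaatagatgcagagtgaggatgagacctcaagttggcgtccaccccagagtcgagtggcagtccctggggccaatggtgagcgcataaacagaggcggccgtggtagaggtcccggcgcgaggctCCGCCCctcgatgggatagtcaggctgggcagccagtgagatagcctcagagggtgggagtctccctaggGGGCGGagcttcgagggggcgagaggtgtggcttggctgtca
Dsp: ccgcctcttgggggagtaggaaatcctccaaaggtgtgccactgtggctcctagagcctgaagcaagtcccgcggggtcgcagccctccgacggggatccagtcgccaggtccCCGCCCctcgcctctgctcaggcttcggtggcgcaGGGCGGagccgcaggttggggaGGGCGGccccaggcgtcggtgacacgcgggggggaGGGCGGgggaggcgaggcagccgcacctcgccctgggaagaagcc
The Jup promoter holds 2 GC boxes and that of Dsp 4, and 32.9% of the 27025 promoters of this length in the table hold at least 1. Neither holds an E-box CANNTG, present in 66% of promoters, or a nuclear receptor half-site AAGGTCA, present in 4.05%. The promoter table lists 5 of the 9 genes.

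Dsp and Pkp2, the desmosomal plaque partners, gave no call. Dsp measured 311, 358, 281 and 316 CPM in WT mice 4686, 4909, 5355 and 5356 and 254, 278, 295 and 290 CPM in Taz-KO mice 4685, 4910, 5300 and 5301, with overlapping groups and a log2 fold change of -0.28 (SE 0.18, adjusted p = 0.345). Pkp2 measured 375, 424, 351 and 436 CPM in WT and 464, 542, 469 and 479 CPM in Taz-KO in the same order of mice. Every Taz-KO mouse was above every WT mouse on the CPM scale, yet the log2 fold change was 0.20 (SE 0.19, adjusted p = 0.555). CPM ratios lay above the edgeR values by a median of 0.10 on the log2 scale over all genes. For Gja1 and Tjp1, too, the mean CPM was higher in Taz-KO while the edgeR fold change, scaled by TMM, was below 0. In all, the groups did not overlap for 4 of the 9 genes, beside 22.4% of all genes, and for 3 of the 9 every Taz-KO mouse was below every WT mouse, beside 7.61%.

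Dsg2 was lower in Taz-KO within each cluster of ventricular-like cardiomyocytes, which is given as values with no test. Clusters 1 and 9 are called ventricular-like because their mean atrial marker level, on a log2 scale relative to the median cluster, was below 0 (-0.92 and -1.10). Their ventricular markers, not used for the name, were at 0.43 and -0.05 on this scale. In cluster 1, the largest with 16755 nuclei, Dsg2 was between 198 and 249 CPM in WT and between 109 and 176 CPM in Taz-KO. In cluster 9, which held between 9.76% and 12.3% of the cardiomyocytes of a WT mouse and between 25.4% and 42.6% of those of a Taz-KO mouse, it was between 147 and 186 CPM and between 66.9 and 113 CPM. Dsg2 was thus lower in cluster 9 than in cluster 1 in both genotypes, and the groups overlapped in neither cluster. Cluster 13, with a median UMI count of 0.82 times that of the library against 2.25 times in cluster 1, held between 11.5% and 18.3% of the cardiomyocytes of a WT mouse, 11.3% and 15.1% of those of mice 4910 and 5300, and 31.5% and 43.3% of those of mice 4685 and 5301. On the marker scale above it was at 1.02 for atrial and 0.83 for ventricular markers, and it was placed in neither class. The atrial markers Myl4, Myl7, Nppa and Sln were among its leading genes. Its Dsg2 was between 142 and 189 CPM in WT and between 60.9 and 128 CPM in Taz-KO, also without overlap. Jup overlapped between the groups in cluster 1, at 64.3 to 94.2 CPM against 39.7 to 67.6 CPM, and did not in cluster 9, at 68.2 to 87.1 CPM against 31.9 to 53.9 CPM. It also overlapped in cluster 13, at 101 to 124 CPM against 42.2 to 116 CPM. The same held in the atrial-like cluster 31, at 65.6 to 94.8 CPM against 0 to 90.7 CPM in 3 Taz-KO mice. Mean WT Jup was 112.5 CPM in cluster 13, against 81.0 and 78.2 CPM in clusters 1 and 9. Over the ventricular-like clusters alone, the log2 fold changes were -1.005 (adjusted p = 0.0102) for Dsg2 and -0.835 (adjusted p = 0.0114) for Jup. This fit pools clusters 1 and 9, so the larger share of cluster 9 in Taz-KO mice remains in it. Mean Dsg2 went from 231 CPM in WT to 147 CPM in Taz-KO in cluster 1, from 163 to 94.6 CPM in cluster 9, and from 221 to 116 CPM pooled.

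**Figure D2:**
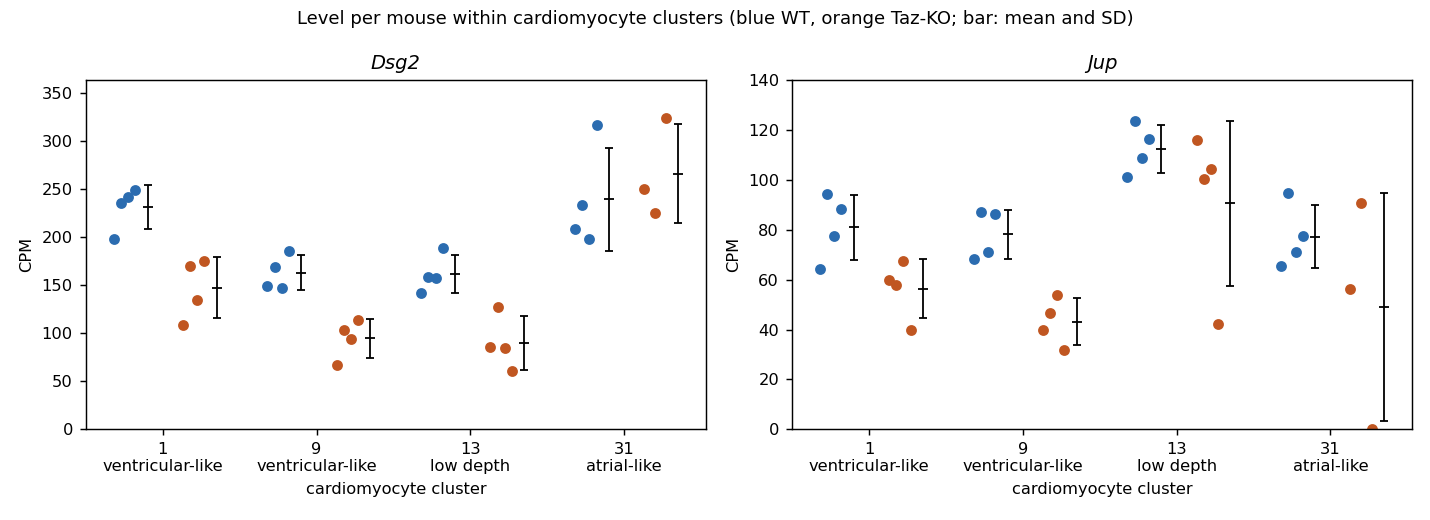
CPM of Dsg2 (left) and Jup (right) in the 4 cardiomyocyte clusters (x axis), 1 point per mouse with at least 10 nuclei in the cluster, WT in blue and Taz-KO in orange, black marks for mean and SD. Dsg2 is lower in every Taz-KO mouse in clusters 1, 9 and 13, while the groups overlap in the atrial-like cluster 31 (687 nuclei). For Jup the groups overlap in clusters 1, 13 and 31 and not in cluster 9.

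Some of the 9 genes also differed between kinds of cardiomyocyte, which is a description, since clusters are no independent groups. In the atrial-like cluster, whose Nppa stood at 1068 ± 331 CPM (SD, n = 7) against 124 ± 91.6 CPM (SD, n = 7) in ventricular-like nuclei, Cdh2 was at 1060 ± 176 CPM (SD, n = 7) against 1825 ± 329 CPM (SD, n = 7). Cdh2, Pkp2 and Dsp were lower in atrial-like than in ventricular-like nuclei in 7 of 7 mice. Ctnna3, Dsg2 and Tjp1 were higher there in 6 of 7. Gja1, Jup and Xirp1 were higher in 3, 4 and 2 of the 7 mice. The ventricular markers Irx4, Hey2, Myl2 and Myl3 were higher in atrial-like nuclei in 0, 1, 1 and 3 of the 7 mice. Of these, Myl2 averaged 1306 against 1588 CPM and Myl3 987 against 1004 CPM, so they set the 2 kinds little apart. Mouse 4685 had 5 atrial-like nuclei and is left out of these values.

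The adherens junction genes gave no call. Cdh2 measured 1413, 1828, 1667 and 2340 CPM in WT mice 4686, 4909, 5355 and 5356 and 1738, 1892, 1413 and 1835 CPM in Taz-KO mice 4685, 4910, 5300 and 5301. The Taz-KO values lay within the WT range, and the log2 fold change was -0.17 (SE 0.26, adjusted p = 0.726). Ctnna3 measured 5049, 5222, 4251 and 5520 CPM in WT and 3159, 4034, 3252 and 4056 CPM in Taz-KO in that order. Every Taz-KO mouse was below every WT mouse, and the log2 fold change of -0.555 (SE 0.24, adjusted p = 0.1504, unadjusted p = 0.0415) did not pass the adjustment in edgeR or in DESeq2 (adjusted p = 0.0742).

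The gap junction gene Gja1 measured 336, 531, 470 and 394 CPM in WT mice 4686, 4909, 5355 and 5356 and 629, 369, 447 and 349 CPM in Taz-KO mice 4685, 4910, 5300 and 5301. The groups overlapped, with Taz-KO mouse 4685 above the WT range and the other Taz-KO mice within it, and the log2 fold change was -0.05 (SE 0.22, adjusted p = 0.909). Its scaffold Tjp1 varied least of the 9 over the 8 mice relative to its mean, from 140 to 163 CPM in WT and from 147 to 171 CPM in Taz-KO, with a log2 fold change of -0.06 (SE 0.17, adjusted p = 0.869). Xirp1 ranged from 27.7 to 34.2 CPM in WT and from 20.7 to 34.96 CPM in Taz-KO. The log2 fold change of Xirp1 was -0.21 (SE 0.16, adjusted p = 0.455). Cardiomyocyte Tjp1 exceeded its level in the tenth of barcodes with the fewest UMIs in 1 of 8 mice. Xirp1 did so in 2 of 8, and Gja1 and Dsp each in 7 of 8. For Gja1 the mean was 441 CPM in cardiomyocytes and 337 CPM in these barcodes, and for Dsp 298 and 245 CPM. How much of the Tjp1, Xirp1, Gja1 and Dsp RNA in these droplets came from cardiomyocytes was not tested. Flat values or the lack of a call thus need not mean unchanged expression there. Xirp1 shares part of its span with Cx3cr1 on the same strand, so reads there may be split between both genes or dropped.

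The wider disc was read from lists of 44 genes, all of which were tested in cardiomyocytes. The lists were chosen with earlier results of these data known, so their counts are a description and no independent support. Of these, 11 were called, 10 lower and 1 higher, which is 25% beside 15.5% of all genes, with a median log2 fold change of -0.19. Without Dsg2, Jup and the other 7 genes, 9 of 35 were called. The desmosome list had 3 of 8 genes called lower and none higher, the adherens junction list 2 of 12 lower, the gap junction and channel list 4 of 13 lower, and the Xin repeat and transitional junction list 1 lower and 1 higher of 8. Without mice 4685 and 5301 the count of 11 dropped to 5, which were Kcnj2, Flnc, Nectin2, Gjc1 and Dsc2, beside 9.97% of all genes called in that fit.

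**Figure D3:**
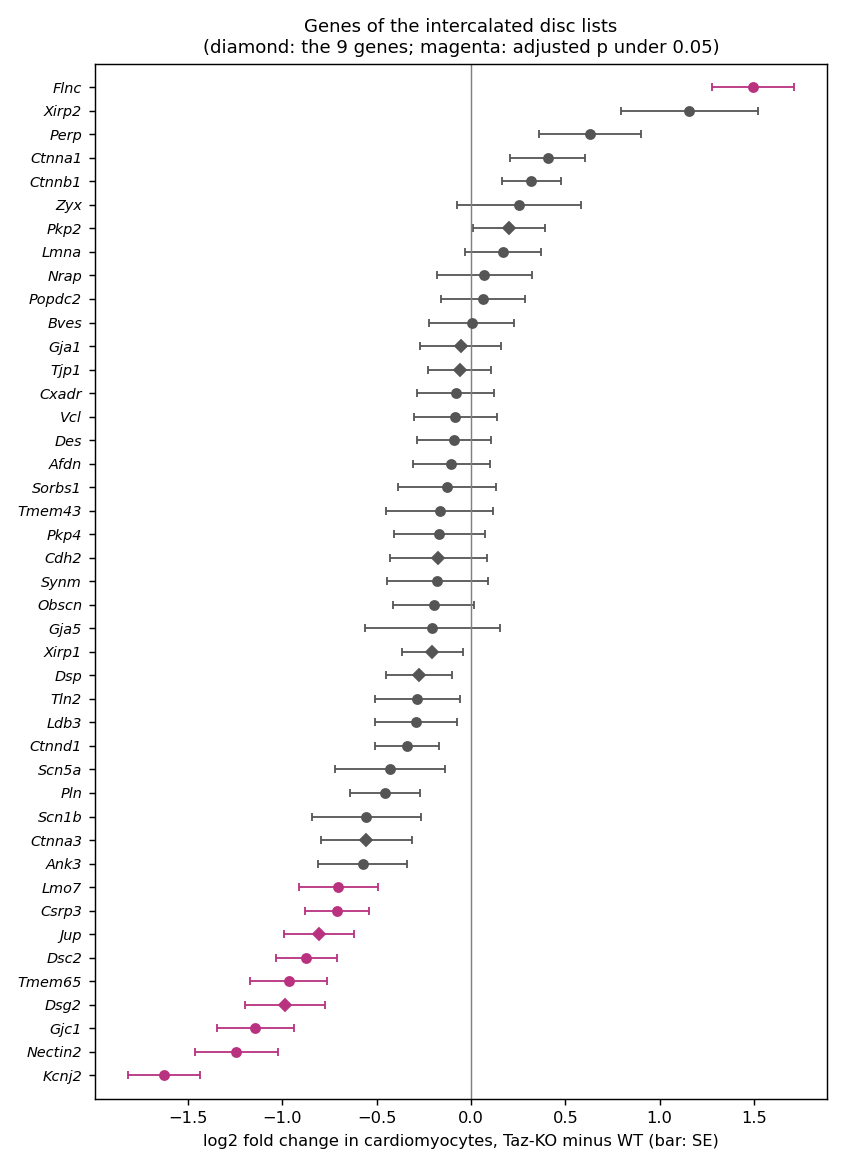
Log2 fold change in cardiomyocytes (x axis, Taz-KO minus WT, bar for SE) of the genes of the disc lists in order of size, with 1 of the 44 not drawn, diamonds for the 9 genes and circles for the others, magenta for an adjusted p under 0.05. Kcnj2 at -1.63 and Flnc at 1.496 mark the ends of the range.

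Dsc2, the desmosomal cadherin that pairs with Dsg2, fell by 0.87 on the log2 scale (SE 0.16, adjusted p = 0.00428). It measured 78.0, 78.5, 77.9 and 86.7 CPM in WT mice 4686, 4909, 5355 and 5356 and 40.3, 46.2, 54.2 and 47.7 CPM in Taz-KO mice 4685, 4910, 5300 and 5301. Its WT values were close together and all above those of Taz-KO. Dsg2 and Dsc2 were thus both called lower, and their genes lie on chromosome 18 with 499 kb between them.

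In the adherens junction list, Nectin2, a nectin that adheres across the junction, changed from 23.1 ± 5.3 CPM to 10.6 ± 2.6 CPM (SD, n = 4 each), with a log2 fold change of -1.24 (adjusted p = 0.00324). Lmo7, an actin-associated junction protein, changed by -0.70 (adjusted p = 0.0442) and was called in 8 of 18 alternative settings. In the gap junction and channel list, Kcnj2, the main inward rectifier potassium channel of ventricular cells, ranged from 37.5 to 47.7 CPM in WT and from 8.65 to 17.8 CPM in Taz-KO. Its log2 fold change of -1.63 (SE 0.19, adjusted p = 0.000264) was the largest of the 44. The minor connexin Gjc1 changed by -1.14 (adjusted p = 0.00346) and Gja5, the atrial and conduction system connexin, gave -0.205 (adjusted p = 0.773). Gja5 was near the floor, with means of 3.5 CPM in WT and 3.6 CPM in Taz-KO. It averaged 53.0 CPM in atrial-like and 2.16 CPM in ventricular-like nuclei, so this fit says little about Gja5 in atrial-like nuclei. Tmem65, an inner mitochondrial membrane and disc protein, changed by -0.97 (adjusted p = 0.00814).

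In the transitional junction list, Csrp3, the muscle LIM protein, changed by -0.71 (adjusted p = 0.0153). Flnc, the filamin of striated muscle, was the 1 gene that rose. It measured 77.9, 82.3, 91.1 and 73.5 CPM in WT mice 4686, 4909, 5355 and 5356 and 256, 162, 256 and 298 CPM in Taz-KO mice 4685, 4910, 5300 and 5301, a log2 fold change of 1.496 (SE 0.22, adjusted p = 0.00101). Xirp2, the Xin-repeat paralog of Xirp1, was named after its values were seen. It ranged from 360 to 551 CPM in WT and from 594 to 1696 CPM in Taz-KO with no overlap. It missed the threshold in edgeR (log2 fold change 1.16, SE 0.36, adjusted p = 0.0543) and passed it in DESeq2 (adjusted p = 0.0141), and without mice 4685 and 5301 its log2 fold change was 0.28 (adjusted p = 0.555 in edgeR). Its highest values, 1696 and 1282 CPM, were those of mice 4685 and 5301.

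Across the 10 cell types the genes fell into several patterns, described over all mice with at least 10 nuclei of the type. Because cardiomyocyte RNA is found in the droplets of other nuclei, each level was also set against the share of cardiomyocyte marker RNA there, which averaged between 12.03% and 21.5% of the cardiomyocyte level. Pkp2 was highest in cardiomyocytes at 442 ± 60.6 CPM (SD, n = 8) and was above the next type, mesothelial cells at 101 ± 18.7 CPM (SD, n = 8), in 8 of 8 mice. Cdh2 was highest in cardiomyocytes at 1766 ± 296 CPM (SD, n = 8), followed by adipocytes at 434 ± 125 CPM (SD, n = 7) and pericytes at 424 ± 69.1 CPM (SD, n = 8), which did not differ beyond their spread. In pericytes the Cdh2 level was 1.56 times the marker share and above it in 8 of 8 mice, but it exceeded the lowest-UMI barcodes in 0 of 8.

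**Figure D4:**
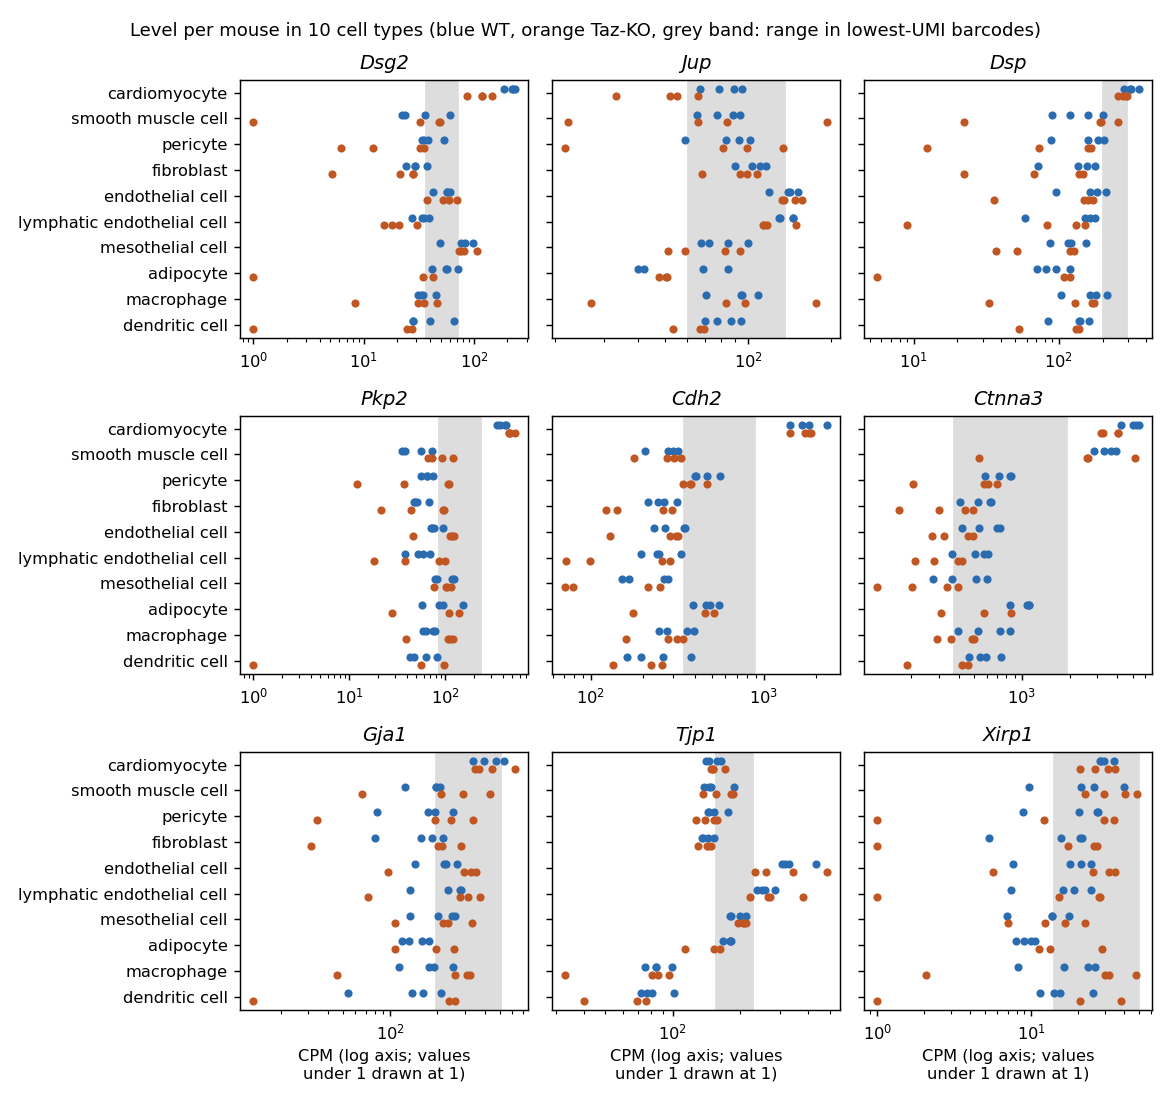
CPM per mouse (x axis, log scale) in each of the 10 cell types (rows), WT in blue and Taz-KO in orange, for the 9 genes, with a grey band for the range over libraries in the tenth of barcodes with the fewest UMIs. Cardiomyocytes stand to the right of the other types for Pkp2 and Cdh2, for Dsg2 they do so within each mouse while cardiomyocytes of mouse 4685 (87.2 CPM) lie below mesothelial cells of mouse 5301 (107 CPM), and Jup and Tjp1 have their highest mean in endothelial cells.

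Ctnna3 was high in 2 cell types, cardiomyocytes at 4318 ± 881 CPM (SD, n = 8) and vascular smooth muscle cells at 3078 ± 1332 CPM (SD, n = 8). The smooth muscle level exceeded the lowest-UMI barcodes in 8 of 8 mice. It was between 3.45 and 5.16 times the marker share in the 6 mice other than 4685 and 5301, with a mean of 4.17. Mouse 5301, with 12 smooth muscle nuclei, was at 21.3 times and mouse 4685, with 25, was below the share at 0.59 times, and the mean over all 8 was 5.86. In the other 8 types, Ctnna3 was between 352 and 839 CPM and between 0.64 and 0.95 times the marker share on average, and it exceeded the lowest-UMI barcodes in 3 of 7 mice in adipocytes and in none in the other 7 types. Dsg2 was highest in cardiomyocytes at 168 ± 57.7 CPM (SD, n = 8), then in mesothelial cells, the epithelial sheet over the heart, at 80.4 ± 17.2 CPM (SD, n = 8). Mesothelial Dsg2 was above the marker share in 8 of 8 mice and above the lowest-UMI barcodes in 7 of 8. It was between 1.76 and 4.16 times the share in the 6 mice other than 4685 and 5301, with a mean of 3.11, and 12.8 and 16.1 times in mice 4685 and 5301, which brought the mean over all 8 to 5.94. In endothelial cells Dsg2 was also above the share in 8 of 8 mice and above the lowest-UMI barcodes in 6 of 8, with a mean of 1.61 times the share in the same 6 mice and 2.33 over all 8.

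Jup and Tjp1, whose products serve junctions of many cell types, were not led by cardiomyocytes. Jup was highest in endothelial cells at 141 ± 12.1 CPM (SD, n = 8) and lymphatic endothelial cells at 131 ± 15.01 CPM (SD, n = 8), neighbours that overlapped, and cardiomyocytes came ninth at 66.9 ± 20.4 CPM (SD, n = 8). Tjp1 followed the same order at the top, with 339 ± 84.8 CPM (SD, n = 8) in endothelial and 271 ± 48.3 CPM (SD, n = 8) in lymphatic endothelial cells, and cardiomyocytes came sixth at 154 ± 10.1 CPM (SD, n = 8). Both endothelial types exceeded the lowest-UMI barcodes for Tjp1 in 8 of 8 mice. For Jup, endothelial cells did so in 7 of 8 and lymphatic endothelial cells in 5 of 8, and each other type in at most 1 mouse. Cardiomyocytes did so in 0 of 8 mice for Jup and in 1 of 8 for Tjp1.

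Gja1, Dsp and Xirp1 gave a less clear order. Gja1 was at 441 ± 101 CPM (SD, n = 8) in cardiomyocytes and between 154 and 246 CPM in the other types, and Dsp at 298 ± 31.2 CPM (SD, n = 8) and between 85.9 and 154 CPM. Both were above the marker share in nearly every mouse and type, on average 2.27 to 4.30 times for Gja1 and 1.23 to 2.87 times for Dsp, but no other type exceeded the lowest-UMI barcodes in more than 1 of 8 mice for either gene. Whether these levels are expression or RNA from outside the nucleus was not tested. Xirp1 was at 29.1 ± 4.7 CPM (SD, n = 8) in cardiomyocytes and 29.6 ± 12.7 CPM (SD, n = 8) in smooth muscle cells, and these did not differ beyond their spread. It exceeded the lowest-UMI barcodes, where it averaged 35.5 CPM, in 2 of 8 mice in cardiomyocytes and 0 of 8 in smooth muscle cells.

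Outside cardiomyocytes no change of the 9 genes passed the test. In the other 9 cell types, with 1 gene untested in 1 of them, edgeR gave 0 calls in 80 tests of these genes, with 7 at an unadjusted p under 0.05 and a lowest adjusted p of 0.176, and DESeq2 gave 0 calls, 7 at an unadjusted p under 0.05 and a lowest adjusted p of 0.202. Few genes of any kind were called in these types. In edgeR the share was 2.75% of genes for adipocytes, 0.432% for endothelial cells, 0.361% for fibroblasts, 0.248% for macrophages, 0.117% for pericytes, 0.0728% for lymphatic endothelial cells, 0.0164% for mesothelial cells, 0.0148% for smooth muscle cells and 0% for dendritic cells. In DESeq2 it was 3.39%, 1.92%, 1.97%, 1.07%, 0.29%, 0.191%, 0.321%, 0.163% and 0.0334% in the same order of cell types. Ctnna3 had a log2 fold change below 0 in 9 of 9 other types, from -0.81 to -0.415, and Cdh2 also in 9 of 9, from -0.50 to -0.02. The cardiomyocyte marker Ryr2 was likewise below 0 in 9 of 9, from -0.86 to -0.22, with no call. Gja1 was above 0 in 9 of 9, from 0.03 to 0.465, and Xirp1 in 8 of 8, from 0.16 to 0.91. Of the other genes, Dsp and Jup were below 0 in 8 of 9 types, Dsg2 in 7, Tjp1 in 6 and Pkp2 in 1. In the lowest-UMI barcodes Gja1 averaged 295 CPM in WT and 378 CPM in Taz-KO, and Xirp1 30.7 and 40.2 CPM. The part of such RNA in these changes was not tested. The types share mice and carried-over cardiomyocyte RNA, so these counts are not independent.

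**Figure D5:**
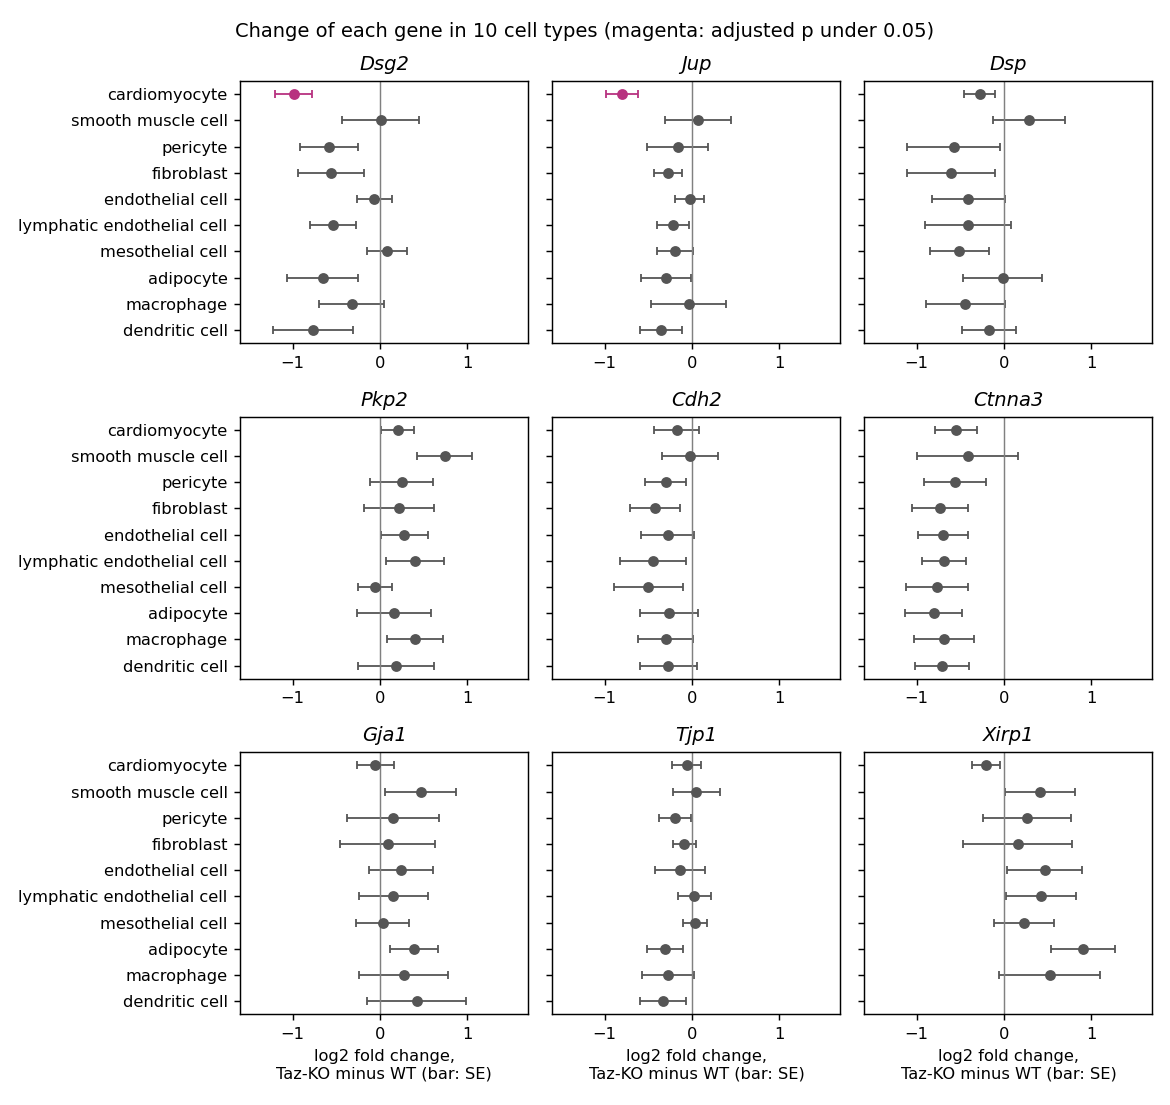
Log2 fold change of each gene (x axis, Taz-KO minus WT, bar for SE) in each of the 10 cell types (rows), magenta for an adjusted p under 0.05. Dsg2 and Jup in cardiomyocytes are the 2 called values.

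Whether Dsg2 and Jup changed differently in cardiomyocytes was tested as a difference of changes in 1 fit with the mouse as a term. In edgeR's quasi-likelihood fit across all genes, the change in endothelial cells was higher than in cardiomyocytes by 1.00 (SE 0.32, adjusted p = 0.148) for Dsg2 and by 0.825 (SE 0.20, adjusted p = 0.0595) for Jup. Both had an unadjusted p under 0.05, and neither passed after adjustment, beside 2.37% of genes that did. For fibroblasts the differences were 0.34 (SE 0.41, adjusted p = 0.749) and 0.47 (SE 0.16, adjusted p = 0.138), beside 4.64% of genes. The difference from endothelial cells passed for Dsg2 once carried-over cardiomyocyte RNA was subtracted (2.07, adjusted p = 0.0307) or mouse 5301 was left out (1.11, adjusted p = 0.0449), and for Jup without a filter on low counts (0.83, adjusted p = 0.0348). These were 2 of 10 alternative settings for Dsg2 and 1 of 10 for Jup. Over the 10 settings the edgeR adjusted p reached 0.286 for Dsg2 and 0.276 for Jup. With carried-over RNA subtracted, the Jup difference of 0.78 did not pass (adjusted p = 0.162).

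The genes whose levels followed each of the 9 most closely over the cell types were found by Pearson correlation of log2(CPM + 1) over the means of the 10 types in WT mice, among 10461 genes. These are descriptions, and the types share libraries and carried-over RNA. In the desmosome, Dsg2 was most like Tbx5 (r = 0.983), Lmo7 (r = 0.977) and Plscr2 (r = 0.976), Pkp2 most like Fhod3 (r = 0.982), Pde4d (r = 0.979) and Nebl (r = 0.973), and Dsp most like Pln (r = 0.989), Atp2a2 (r = 0.986) and Mybpc3 (r = 0.985). All of these peak in cardiomyocytes. Jup was most like Plvap (r = 0.896) and Ramp2 (r = 0.874), which peak in endothelial cells, and Prrt4 (r = 0.888), which peaks in lymphatic endothelial cells. In the adherens junction, Ctnna3 was most like Dmd (r = 0.996), Myom1 (r = 0.995) and Mylk4 (r = 0.986), and Cdh2 most like Lsmem1 (r = 0.992), Gm49390 (r = 0.981) and Trim63 (r = 0.980). Gja1 was most like Syngr1 (r = 0.937), Tmem106b (r = 0.906) and Cog6 (r = 0.905), Tjp1 most like Myo6 (r = 0.941), Bcar1 (r = 0.936) and Wwtr1 (r = 0.929), and Xirp1 most like Sh3bgr (r = 0.967), Klhl41 (r = 0.967) and Mgst3 (r = 0.963).

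By the GENCODE annotation of GRCm38, Jup lies on chromosome 11 at 100368958 to 100397763, Gja1 on chromosome 10 at 56377330 to 56402513, Ctnna3 on chromosome 10 at 63430098 to 65003667, Dsp on chromosome 13 at 38151294 to 38198577, Pkp2 on chromosome 16 at 16213318 to 16272712, Tjp1 on chromosome 7 at 65296165 to 65527781 and Xirp1 on chromosome 9 at 120013755 to 120023598. Dsg2 and Cdh2 are on chromosome 18. Reads in introns were counted, and Ctnna3 spans 1574 kb, so levels are compared within a gene and not between genes.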

How the data were processed

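Nuclei of whole hearts were profiled with the 10x Genomics 3' kit, which keeps strand. The deposited values are raw UMI counts per gene and barcode, which the authors made with Cell Ranger 6.0.1 on mm10, introns included. The lowest-UMI barcode of 6 libraries had 2165 UMIs or more. The barcodes with the fewest UMIs (a share of 0.1 of each library) served as the ambient profile, and whether they or other barcodes hold a nucleus was not tested. In these 6 libraries every barcode passed the filter given below, so the profile includes barcodes that were also kept as nuclei. In Taz-KO mice 4685 and 5301 the lowest-UMI barcode had 500 UMIs, and 3475 of 3492 and 3890 of 5571 barcodes passed. Counts of mice above the lowest-UMI barcodes are limited by this overlap. The authors' ambient RNA correction and doublet removal came after these counts. Here barcodes with at least 800 non-mitochondrial UMIs and 250 genes were kept, 16231 were removed as doublets by scores from artificial doublets, and 151264 remained of 169193, more than the study kept. What is counted here as nuclei thus includes many barcodes that the study did not keep. Library pairs shared at most 294 barcodes. The first 15 principal components were corrected by mouse with Harmony's published algorithm written in numpy 2.4.6, and Leiden clustering (python-igraph 0.11.9) gave 40 clusters, named from marker lists by rules set after the marker scores were seen. Clusters without a clear name (37661 nuclei) were not used.

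Counts without mitochondrial genes were summed per mouse and cell type with at least 10 nuclei and compared by the robust quasi-likelihood test of edgeR 4.0.16 after filterByExpr and TMM (R 4.3.3), or by DESeq2 1.42.0. The study tested single nuclei with the mouse as a covariate, whereas mice are the replicates here, and p-values measure the spread between mice. The tests were tried on simulated counts. The 9 genes, the lists and the alternatives were chosen with earlier results of these data known. Named genes were the 9, Taz, up to 12 called list genes and for each of the 9 the 3 most correlated genes among those of at least 20 CPM in a cell type. The values of 1 called list gene are not reported here, and it is included in the counts. Xirp2 and Gja5 were added after their values were seen. Labels give no extraction or sequencing batch.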

Additional observations from a re-analysis of the deposited data

Results flagged for a closer look

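In groups of 4 mice, a value was picked out where its gap to the nearest mouse exceeded Dixon's critical share of the range of the group. This held for 8 of 162 groups of the 9 genes over the cell types, and chance alone gives about 1 in 20. Of these, 3 were low values of Taz-KO mouse 5301, a library of low depth: Dsp in endothelial cells at 36.0 CPM (others 150 to 173), Pkp2 in endothelial cells at 46.1 CPM (others 113 to 123) and Pkp2 in macrophages at 39.4 CPM (others 109 to 121). Taz-KO mouse 5300 was high for Jup in lymphatic endothelial cells at 150 CPM (others 113 to 117). Of the WT mice, 4909 was high for Pkp2 in fibroblasts at 67.3 CPM (others 47.5 to 50.8), and 5356 was low for Gja1 in smooth muscle cells at 125 CPM (others 195 to 207) and for Tjp1 in adipocytes at 167 CPM (others 179 to 181). WT mouse 4686 was low for Ctnna3 in adipocytes at 840 CPM (others 1077 to 1110). No value in cardiomyocytes was picked out.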

How the results depend on the processing

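The count of 2 called genes of the 9 in cardiomyocytes was 2 under every alternative run except without mice 4685 and 5301, where it was 0, and the count of 11 called list genes was then 5. Leaving out 1 mouse at a time gave 2 throughout for the 9 genes and 9 to 11 for the lists. In the other cell types the count stayed at 0 under every alternative, the subtraction of carried-over RNA included. The count of genes whose change differed from that in endothelial cells was 0, and became 1 with carried-over RNA subtracted, 1 without a filter on low counts, and 0 to 1 when 1 mouse was left out. Fold changes near 0 turned sign: Gja1 reached 0.001 with nuclei under 5% mitochondrial UMIs, a setting that also drops WT mouse 4909 (6 such nuclei), and 0.022, 0.014 and 0.035 without mice 4910, 5300 and 4909, without 1 mouse Gja1 ranged from -0.237 to 0.035, Cdh2 from -0.289 to 0.040 and Tjp1 from -0.128 to 0.035, where Cdh2 reached 0.040 without mouse 5356, and Tjp1 reached 0.035 without mouse 5300. DESeq2 called 3536 genes in cardiomyocytes where edgeR called 2811. No paired analysis was made, because the labels used here give no pairing of WT with Taz-KO mice by litter or processing. Depth limits cardiomyocytes most in mice 4685 and 5301, at 3773935 and 8435086 UMIs against 29687113 to 80694156. The alternatives that use only ventricular-like clusters or add the mixed clusters, and the marker share multiples without mice 4685 and 5301, were chosen after the data were seen.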

Other observations

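The ratio of the atrial-like to the ventricular-like level was computed per mouse for the 9 genes, after the values were seen, in the 7 mice with at least 10 atrial-like nuclei. For Dsg2 it was 1.09, 1.03, 0.87 and 1.33 in WT mice 4686, 4909, 5355 and 5356 and 1.74, 1.89 and 2.70 in Taz-KO mice 4910, 5300 and 5301. The groups did not overlap (two-sided exact permutation p = 0.0571, the smallest that 4 mice against 3 allow, before any adjustment over 9 genes). Dsg2 in atrial-like nuclei averaged 239 ± 53.7 CPM (SD) over the 4 WT mice and 266 ± 51.5 CPM (SD) over the 3 Taz-KO mice, from 89 to 241 Dsg2 UMIs per WT mouse and from 21 to 648 per Taz-KO mouse. For Gja1 the ratio was between 0.70 and 0.93 in WT and between 1.03 and 1.47 in Taz-KO, with the same exact permutation p. Ratios of the other 7 genes overlapped between the groups. The highest ratio of both Dsg2 and Gja1 was that of mouse 5301, with 17 atrial-like nuclei. The share of all genes whose ratios do not overlap was not computed, so these ratios have no background to be set against.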
